A study of Homo sapiens with 8 samples.

Results

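MicroRNA-named rows are the entries of a gene expression table that carry the name of a microRNA gene. The rows described here are those whose symbol starts with MIR and a digit or with LET, as MIRLET7D does, and whose mean over all libraries is at least 1 FPKM in the table that was not normalized. FPKM counts fragments per length of transcript, in kilobases, and per number of fragments mapped in the library. Rows of the MIR1244 copies and names ending in HG, the host genes, were left out. The rule kept 108 rows of the 1280 that carry a microRNA name, in a table of 23713 rows. The rows were thus chosen by their mean unnormalized FPKM, and the levels below are a description. MIR215 and MIR221, each with a mean of 1.43 FPKM, and MIR3648, with 1.03 FPKM, lay just inside the minimum. MIR3180-5 with 0.967 FPKM, MIR5194 with 0.816 FPKM and MIR3614 with 0.01 FPKM lay just outside.

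RNA was sequenced from NALM6, a human cell line established from B-cell acute lymphoblastic leukemia, in which HMGN1, a protein that binds nucleosomes, could be induced with doxycycline. The SE DOX group carried the S20,24E mutant of HMGN1, which is deficient in nucleosome binding, and received doxycycline at 100 ng/ml for 6 h. The SE vehicle group carried the same mutant and received vehicle for 6 h. The WT DOX group carried wild-type HMGN1 with the same doxycycline treatment, and the WT vehicle group carried wild-type HMGN1 with vehicle. Each group has 2 libraries, lettered A and B and labelled as biological replicates. The sources used here do not give whether they came from separate cultures or whether a line is 1 clone. The p-values measure the spread between these libraries, and its source was not tested. For some genes, not for all, DOX and vehicle libraries of 1 letter lay close while the letters differed. IGLL1 had 615 and 623 FPKM in SE A against 943 and 937 FPKM in SE B, DOX before vehicle. No group without an HMGN1 construct is among the samples. All 4 groups therefore share the inducible construct and a kit that selects polyadenylated RNA.

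HMGN1, the gene to be induced, had 1421 and 1061 FPKM in SE DOX libraries, 1427 and 1066 FPKM in SE vehicle libraries, 792.9 and 795.3 FPKM in WT DOX libraries, and 809.2 and 796.0 FPKM in WT vehicle libraries, A before B. The libraries labelled DOX thus held no more HMGN1 than those labelled vehicle, and every DOX group below is named by its label. All 13 B-lineage markers had a mean of at least 1 FPKM, and their summed level ran from 2161 to 2592 FPKM over the 8 libraries. None of 8 T-cell markers, none of 7 erythroid markers and 2 of 7 myeloid markers reached that mean. Summed myeloid markers were between 2.55 and 5.55 FPKM in each library.

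A microRNA gene is transcribed as a long primary transcript, often from within another gene. DROSHA and DGCR8 cut the hairpin out of that transcript in the nucleus, XPO5 exports it, DICER1 trims it to a duplex of short strands, and an Argonaute protein takes up 1 strand, the mature microRNA, whose seed near the 5′ end pairs with target messages. Neither the hairpin nor the mature strand carries a poly(A) tail. A library of polyadenylated RNA therefore holds primary and host transcripts, and a row named after a microRNA gene counts fragments that lie within the hairpin's place in the genome. In bulk RNA, fewer cells with a transcript and less of it per cell cannot be told apart. Nothing given here says that the library kit marks strand, and a row and a gene on the opposite strand cannot be told apart either.

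The mature sequences below belong to the rows on which the results turn. They come from RefSeq, on the GRCh38.p14 build, and the seed, bases 2 to 8 from the 5′ end, is in capitals. The first set belongs to rows that were above 0 in every library: miR-5047 from MIR5047 at chr17:64501230-64501250, miR-3916 from MIR3916 at chr1:247202016-247202041, miR-25-3p from MIR25 at chr7:100093571-100093592, miR-1282 from MIR1282 at chr15:43793732-43793751 and miR-1248 from MIR1248 at chr3:186786675-186786701. All of them lie on the minus strand except miR-1248, which lies on the plus strand.
hsa-miR-5047: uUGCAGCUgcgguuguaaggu
hsa-miR-3916: aAGAGGAAgaaauggcugguucucag
hsa-miR-25-3p: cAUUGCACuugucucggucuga
hsa-miR-1282: uCGUUUGCcuuuuucugcuu
hsa-miR-1248: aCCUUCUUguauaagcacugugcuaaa

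The second set belongs to rows that a test between groups called. These are miR-4312 at chr15:68801860-68801878, minus strand, miR-130b-3p at chr22:21653354-21653375, plus strand, miR-3651 at chr9:92292461-92292484, minus strand, miR-1260b at chr11:96341447-96341465, plus strand, miR-1307-3p at chr10:103394301-103394322, minus strand, and miR-3944-3p at chr10:133371579-133371601, minus strand.
hsa-miR-4312: gGCCUUGUuccugucccca
hsa-miR-130b-3p: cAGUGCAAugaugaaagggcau
hsa-miR-3651: cAUAGCCCggucgcugguacauga
hsa-miR-1260b: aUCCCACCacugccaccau
hsa-miR-1307-3p: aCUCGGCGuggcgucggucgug
hsa-miR-3944-3p: uUCGGGCUggccugcugcuccgg

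Of the 108 rows, 96 matched a mature sequence in the RefSeq table, 130 sequences in all, and 8 seeds were shared by rows of different genes. The seed AGUGCAA was shared by miR-130b-3p and miR-454-3p, GAGGUAG by let-7d-5p and let-7i-5p, and UCACAUU by miR-23b-3p and miR-23c. These pairs are shown because strands with the same seed can pair with the same sites, while their rows were counted from separate places in the genome. The strands not yet placed are miR-454-3p at chr17:59137787-59137809, minus strand, let-7d-5p at chr9:94178841-94178862, plus strand, let-7i-5p at chr12:62603691-62603712, plus strand, miR-23b-3p at chr9:95085265-95085287, plus strand, and miR-23c at chrX:20017101-20017122, minus strand.
hsa-miR-454-3p: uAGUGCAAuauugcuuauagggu
hsa-let-7d-5p: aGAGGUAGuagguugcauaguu
hsa-let-7i-5p: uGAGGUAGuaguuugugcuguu
hsa-miR-23b-3p: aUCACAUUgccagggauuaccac
hsa-miR-23c: aUCACAUUgccagugauuaccc

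The hairpins of MIR25 and MIR4312 show how short the counted rows are, with the mature strands in capitals. MIR25 spans 84 bases at chr7:100093560-100093643 and MIR4312 spans 76 bases at chr15:68801850-68801925, both on the minus strand.
MIR25: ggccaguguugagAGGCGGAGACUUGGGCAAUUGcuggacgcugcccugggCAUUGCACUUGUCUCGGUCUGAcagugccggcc
MIR4312: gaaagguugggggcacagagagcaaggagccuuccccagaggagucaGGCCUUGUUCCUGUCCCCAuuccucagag

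Most of the rows were off, as defined here, in at least 1 library. A row is called off in a library below 0.1 FPKM, on/off if it was off in any library, steady if it was never off and its highest library was at most 2 times its lowest, and variable otherwise. Of the 108 rows, 2 were steady (1.85%), 6 were variable (5.56%) and 100 were on/off (92.6%). Over the 11042 rows without small RNA names and with the same minimum, 95.8% were steady, 4.1% were variable and 0.145% were on/off. Rows of small nucleolar and Cajal body RNAs, 179 with the same minimum, lay between these, with 27 steady, 66 variable and 86 on/off. Of the microRNA-named rows, 37 were on in a single library, 21 in 2 libraries, 11 in 3, 9 in 4, 9 in 5, 10 in 6, 3 in 7 and 8 in all 8. Outside the minimum, 1158 of the 1280 rows were listed at 0 in every library.

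A high FPKM did not stand for many fragments. The values of these rows fell on a grid: in each library most were whole multiples of a step that depended only on the annotated length of the microRNA gene. The step is what 1 fragment is worth when the length open to it is taken from a normal distribution of fragment lengths with a mean of 200 and an SD of 80 bases, cut at a shortest fragment of 72 bases. With that cut, 253 of 341 values of microRNA-named rows above the off limit, or 74.2%, were whole within 0.02 fragments. With cuts of 71 and 73 bases the shares were 21.4% and 23.3%. The grid gives the mapped fragments of each library as 68240000 and 51460000 in SE DOX, 54920000 and 55820000 in SE vehicle, 62600000 and 48680000 in WT DOX, and 59820000 and 45280000 in WT vehicle, A before B. These depths were derived from the values and are not the authors' own figures.

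In this conversion 84 of the 108 rows held whole fragments in every library where they were on. Over all 8 libraries together, 27 of them held 1 fragment, 17 held 2, 18 held 3 to 5, 12 held 6 to 10 and 10 held more than 10. Of their 243 values above the off limit, 147 (60.5%) were 1 fragment and 48 were 2 fragments. The most frequent step in each library was set to 1 fragment, so that 1 is the commonest count follows in part from the conversion. Another 20 rows gave fractions of fragments, and 19 of these overlap an exon of another gene or a small nucleolar RNA, against 34 of the 84 whole rows. The 4 MIR941 rows, copies that lie beside each other in DNAJC5, could not be converted and are given in FPKM only.

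The worth of 1 fragment falls steeply with length. For MIR4312, of 76 bases, 1 fragment stood for 649 FPKM in SE DOX A and for 978 FPKM in WT vehicle B, the deepest and the shallowest library. For MIR25, of 84 bases, it stood for 101 FPKM in SE DOX A and 153 FPKM in WT vehicle B. For MIR3648, of 180 bases, it stood for 0.891 FPKM in SE DOX A and 1.34 FPKM in WT vehicle B. Among the rows of whole fragments, the 22 of 76 to 85 bases had a median level of 40.9 FPKM on a median of 1.5 fragments over all libraries. The 19 rows of 106 bases or more had a median level of 4.1 FPKM on a median of 5 fragments, so the order of the rows by FPKM was not the order by fragments.

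**Figure D1:**
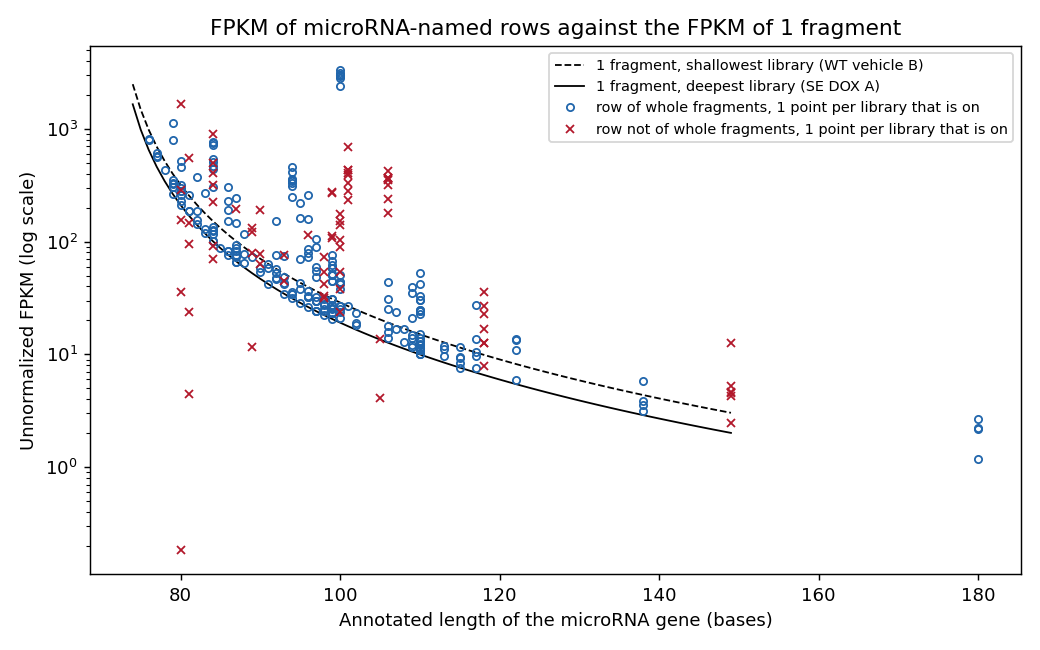
Unnormalized FPKM (log scale) of every microRNA-named row in every library where it was on, against the annotated length in bases. Lines give the FPKM of 1 fragment in the deepest library (SE DOX A, solid) and the shallowest (WT vehicle B, dashed), and most points of rows of whole fragments (circles) lie on or just above these lines, while the 8 highest points at 100 bases, around 2945 FPKM, are MIR5047.

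Rows that were seen were longer than those that were not. None of the 270 microRNA-named rows shorter than 72 bases was on in any library, against 110 of 1006 rows of 72 bases or more. Under the conversion a row shorter than 72 bases has no room for a fragment, so its 0 says nothing on its level. The median length was 94.5 bases for the 108 rows and 81 bases for the other microRNA-named rows. A 0 on a longer but still short row sets a wide limit. With 3 fragments as the limit that a count of 0 allows, a 0 for MIR25 in SE DOX A would have allowed up to 304 FPKM, and the 0 of MIR641 in SE DOX A allows up to 61.8 FPKM. These limits and the intervals below cover counting error only.

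The 2 steady rows both lie wholly within an exon of another transcript, by the GENCODE v29 annotation. Here and below, an exon is one of any annotated transcript of the gene named, which need not be its most abundant transcript. MIR5047 lies in an exon of DDX5, an RNA helicase that takes part in the nuclear cutting of primary microRNA transcripts. It held 152 and 112 fragments in SE DOX libraries, 127 and 128 in SE vehicle libraries, 115 and 116 in WT DOX libraries, and 137 and 115 in WT vehicle libraries, A before B. Its level averaged 2945 FPKM, with the highest library 1.38 times the lowest. These counts are not adjusted for depth, which ran from 45280000 to 68240000 mapped fragments. SE DOX A, with 152 fragments, was the deepest library, so the counts do not rank the groups. The SD over the 8 libraries was 13.8 fragments around a mean of 125. Counting alone would give 11.2 if all libraries were equally deep, and the part of depth in this SD was not separated.

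The mean of MIR5047 was 9.9 times that of DDX5, which had 297 FPKM over a range from 284 to 321 FPKM. At the level of DDX5 the row would have held 101 fragments over the 8 libraries, against 1002 counted. The row therefore stood well above its host on the same per-length scale. Whether the method's correction for short rows enters that ratio was not tested.

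MIR3916, the other steady row, held 11 and 6 fragments in SE DOX libraries, 8 and 12 in SE vehicle libraries, 12 and 8 in WT DOX libraries, and 10 and 7 in WT vehicle libraries. It lies in an exon of AL390728.4, a transcript for which the table has no row. Its level ran from 249 to 459 FPKM, and in fragments, not adjusted for depth, every group overlapped the others. Its SD of 2.31 fragments around a mean of 9.25 was below the 3.04 that counting alone gives at equal depth.

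**Figure D2:**
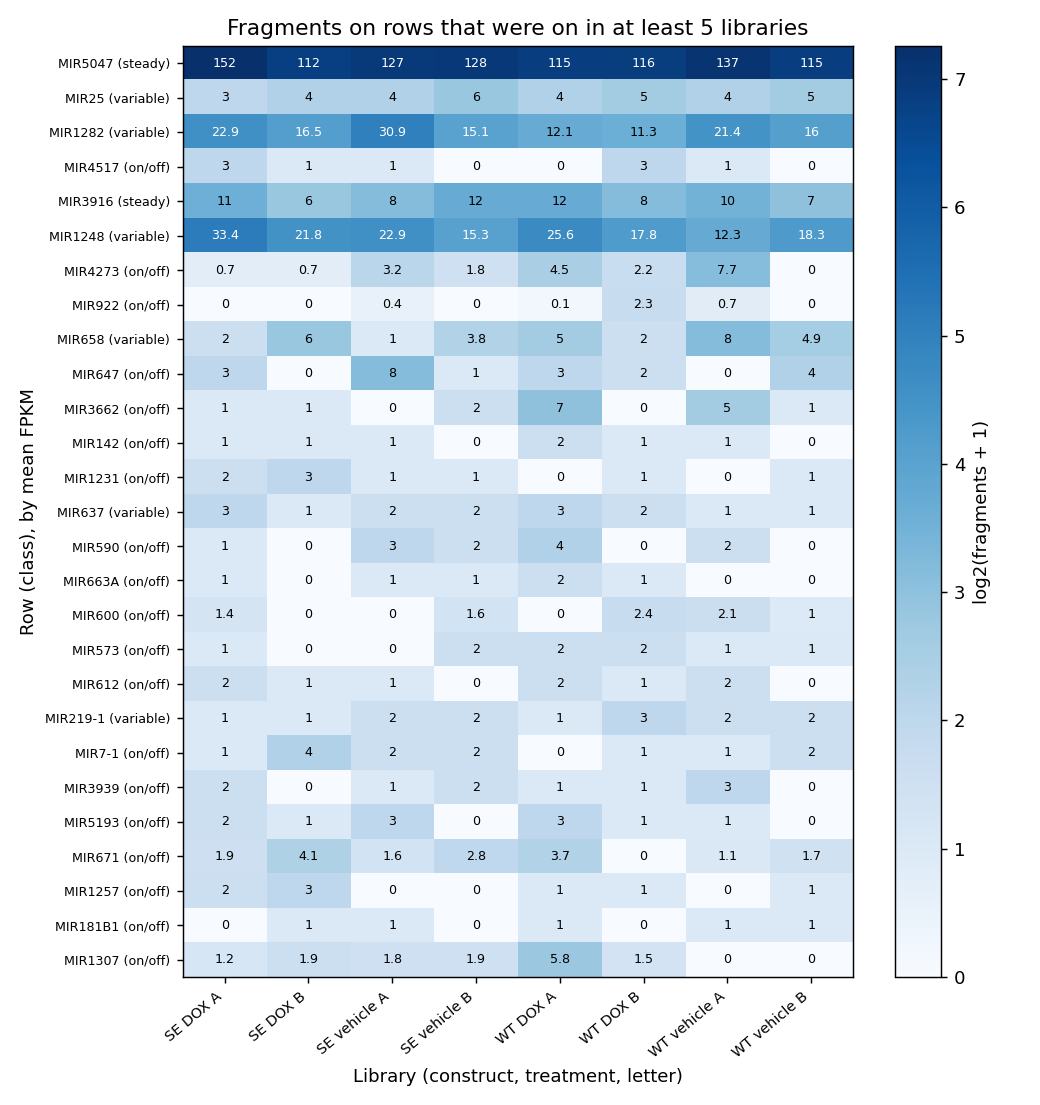
Fragments in each of the 8 libraries (columns, SE before WT and DOX before vehicle) for the 27 rows that were on in at least 5 libraries and could be converted, ordered by mean FPKM with each row's class; colour gives log2(fragments + 1). MIR5047 holds 112 to 152 fragments throughout, while most of the others hold between 0 and 8.

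The 6 variable rows were MIR25, MIR1282, MIR1248, MIR658, MIR637 and MIR219-1. MIR25 belongs to the miR-106b/25 cluster, which lies in an intron of MCM7, a subunit of the replicative helicase. It held 3 and 4 fragments in SE DOX libraries, 4 and 6 in SE vehicle libraries, 4 and 5 in WT DOX libraries, and 4 and 5 in WT vehicle libraries. In FPKM these few fragments read as 304 to 764. Its SD was 0.916 fragments around a mean of 4.37, where counting alone gives 2.09 at equal depth. Its spread in FPKM, the highest 2.51 times the lowest, thus came on counts that differed by no more than 3.

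The other members of the same cluster held few fragments or none. MIR106B held 1 fragment in all, in WT DOX A, and MIR93 was listed at 0 in every library. On a row as short as MIR106B, of 82 bases, a 0 allows up to 425 FPKM in SE DOX A and 641 FPKM in WT vehicle B. These counts therefore do not show that the rows were silent. MCM7 itself ran from 173 to 214 FPKM. At the level of MCM7, MIR25 would have held 12.5 fragments over the 8 libraries against 35 counted. MIR106B would have held 8.96 against 1. Both rows lie in an intron, so the MCM7 level is a scale here and not an expected count.

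MIR1282 and MIR1248 gave fractions of fragments in most libraries. MIR1282 lies in an intron of a same-strand gene that has no row, and also within an exon of SERF2 on the opposite strand. It held 146 fragments in all, with levels from 235 FPKM in WT DOX A to 682 FPKM in SE vehicle A. SERF2 ran from 63.1 to 75.4 FPKM. MIR1248 lies in an exon of EIF4A2, an RNA helicase of translation initiation, and shares its place with the small nucleolar RNA SNORA81. It averaged 324 FPKM, against 291 FPKM for EIF4A2 and 95.2 FPKM for SNORA81.

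MIR1248 was thus 1.11 times its host, the closest match among rows within an exon. At the level of EIF4A2 it would have held 150 fragments against 168 counted. How reads were divided between the 3 rows was not tested.

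MIR658 lies in an exon of ANKRD54 and ran from 23.8 FPKM in SE vehicle A to 174 FPKM in WT vehicle A, while ANKRD54 ran from 11.6 to 12.8 FPKM. MIR637 lies in an exon of the kinase gene DAPK3 and held 3 and 1 fragments in SE DOX libraries, 2 and 2 in SE vehicle libraries, 3 and 2 in WT DOX libraries, and 1 and 1 in WT vehicle libraries. MIR219-1 lies in no other annotated gene and held 1 and 1 fragments in SE DOX libraries, 2 and 2 in SE vehicle libraries, 1 and 3 in WT DOX libraries, and 2 and 2 in WT vehicle libraries. Both rows were on everywhere, and their groups differed by 1 or 2 fragments a library.

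The on/off rows include some of the highest levels. MIR4517, in an exon of NFATC2IP, had the fourth highest mean, 362 FPKM, on 9 fragments in all. It held 3 and 1 fragments in SE DOX libraries, 1 and 0 in SE vehicle libraries, 0 and 3 in WT DOX libraries, and 1 and 0 in WT vehicle libraries. In every group the 2 libraries differed, and no group stood apart. MIR4420, in an intron of LAPTM5, a lysosomal protein of blood cells, averaged 218 FPKM on 3 fragments, 1 each in SE DOX B, SE vehicle A and SE vehicle B.

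MIR4321, in an exon of AMH, averaged 165 FPKM on 5 fragments, and no fragment fell in a WT vehicle library. MIR4273, within an exon of ZNF717 on the opposite strand, averaged 312 FPKM on about 20.8 fragments, from 0 in WT vehicle B to 890 FPKM in WT vehicle A. Both libraries of 1 group were thus at its lowest and highest value. MIR4800, in an exon of MXD4, a repressor of the MYC network, had 0.184 and 0 FPKM in SE DOX libraries, 0 and 155 FPKM in SE vehicle libraries, 35.4 and 0.01 FPKM in WT DOX libraries, and 0.01 and 1670 FPKM in WT vehicle libraries.

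A single library, WT vehicle B, carried most of the mean of MIR4800, which was 233 FPKM. MXD4 ran from 3.85 to 5.20 FPKM and had 4.43 FPKM in that library. MIR1184-1 and MIR1184-2, copies on the X chromosome, moved together. They stood at 269 and 273 FPKM in SE DOX B and at 106 and 111 FPKM in WT vehicle B, and at 0.01 FPKM in the other 6 libraries. They overlap F8A1, which ran from 21.2 to 26.4 FPKM, and its copy F8A2, and reads of near-identical copies can be divided between rows, so these values are uncertain.

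Rows of microRNAs with known roles in B cells and leukemia were seen in few fragments or not at all. Of 36 rows on a list of such microRNAs, 33 were listed at 0 in every library, and 3 passed the minimum: MIR142, MIR181B1 and MIR181B2. MIR142, a microRNA gene of blood cells, held 1 and 1 fragments in SE DOX libraries, 1 and 0 in SE vehicle libraries, 2 and 1 in WT DOX libraries, and 1 and 0 in WT vehicle libraries. MIR181B1 held 1 fragment in each of 5 libraries and MIR181B2 held 1 in WT DOX B. Of the 36 rows, 30 are at least 72 bases long, the shortest fragment counted. The 0 of a shorter row says nothing on its level.

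Of the rows that share a seed, the 3 pairs printed above held 1 or 2 fragments each. MIR130B held 1 fragment in each SE DOX library, and MIR454, in an intron of SKA2, held 1 in SE DOX A and 1 in SE vehicle A. MIRLET7I held 1 fragment, in SE DOX A, and MIRLET7D held 1, in WT DOX A. MIR23B held 1 fragment, in SE vehicle A, and MIR23C held 2, in WT vehicle A. MIR320B2 and MIR320C1 (seed AAAGCUG) held 5 and 2 fragments. The copies MIR1184-1 and MIR1184-2 (seed CUGCAGC) came to 13.3 and 13.5 fragments, with the division of reads noted above. The 4 MIR941 rows (seed ACCCGGC) have no fragment count.

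The number of rows on differed between libraries. It was 55 and 40 in SE DOX libraries, 42 and 42 in SE vehicle libraries, 49 and 39 in WT DOX libraries, and 40 and 31 in WT vehicle libraries, A before B. The library with most mapped fragments, SE DOX A, had most rows on, and that with fewest, WT vehicle B, had fewest. Within each construct the DOX library of letter A was deeper and had more rows on than the vehicle library of letter A. Rows on in a single library numbered 11 in SE DOX A and 7 in WT DOX A, against 2 to 5 in each other library.

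**Figure D3:**
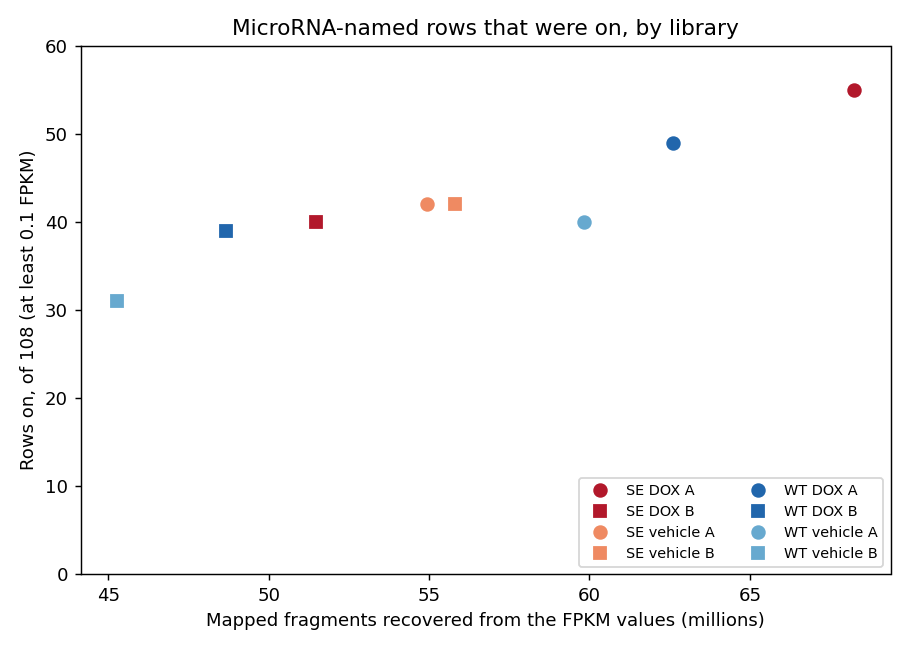
Number of the 108 microRNA-named rows that were on (at least 0.1 FPKM) in each library against its mapped fragments, recovered from the FPKM values; circles are letter A, squares letter B, colours the 4 groups. The count runs from 31 rows at 45280000 fragments to 55 rows at 68240000.

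Most rows lie in another gene. Each row is counted below by 1 overlap, with a same-strand gene taken before one on the opposite strand, so MIR1282 counts as intronic. By GENCODE v29, 28 lie wholly within an exon of at least 1 annotated transcript on the same strand, 13 partly within one, 49 in an intron on the same strand, 6 wholly within an exon on the opposite strand, 7 in an intron on the opposite strand, and 5 in no other gene. Both steady rows and 3 of the 6 variable rows were among the 28 in same-strand exons. For 75 rows the same-strand host has a row of its own, and 43 of these microRNA-named rows had a higher mean FPKM than the host. The median of row over host was 2.22 for 25 rows wholly in an exon, 0.372 for 9 partly in one and 1.13 for 41 in an intron.

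In fragments the picture differed. The 25 rows wholly in an exon held 1330 fragments, against 680 at the level of their hosts. MIR5047 alone gave 1002 of them, against 101 at host level. Without MIR5047 the rows together lay below host level. The 37 intronic rows that could be converted held 184 fragments, against 369 at host level. The host's FPKM is measured over its exons, so for intronic rows host level is a scale and not an expected count. The 9 rows partly in an exon held 38.3 fragments, against 1165 at host level, of which MIR1307 would have had 1050.

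The rows closest to their host in FPKM show what such a match rests on. MIR4263 had 14.9 FPKM and its host BRE 14.8 FPKM, on 1 fragment in SE DOX A. MIR4312 had 1.09 times the level of ANP32A on 2 fragments, and MIR4420 had 0.914 times that of LAPTM5 on 3. MIR941-3 had 21.2 FPKM against 22.5 FPKM for DNAJC5, with 23.0 and 30.5 FPKM in SE DOX libraries, 28.6 and 0 in SE vehicle libraries, 25.1 and 9.69 in WT DOX libraries, and 52.4 and 0 in WT vehicle libraries.

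Of the 5 rows closest to host level, only MIR1248 was on in all 8 libraries. Among rows with a host on the same strand, the 5 farthest above it were MIR4635, at 220 times SLC12A7, MIR23C, at 129 times MAP7D2, MIR4257, at 116 times ADAMTSL4, MIR147B, at 109 times C15orf48, and MIR4800, at 50.4 times MXD4. The first 4 of these were on in a single library. Of the rows in an opposite-strand exon, MIR4273 stood at 191 times ZNF717 and MIR1184-2 at 4795 times F8A2, which had 0.01 FPKM.

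Rows far below an abundant host were also seen. MIR7-1 lies in an exon of HNRNPK, an RNA-binding protein, and held 13 fragments against 267 at the level of HNRNPK, which averaged 410 FPKM. MIR636 lies in an exon of the splicing factor gene SRSF2 and held 7 fragments against 90.5 at host level. A row inside an exon of any annotated transcript of an abundant gene thus did not always stand at that gene's level. Whether the abundant transcripts of these genes keep that exon or splice it out was not tested.

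**Figure D4:**
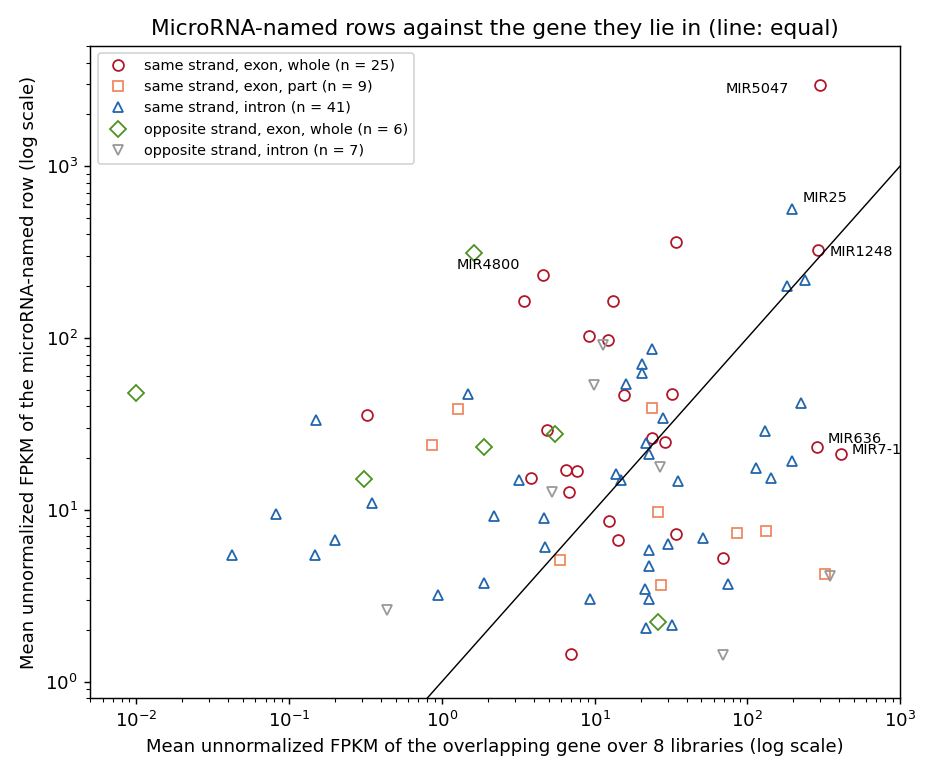
Mean unnormalized FPKM of each microRNA-named row against that of the gene it lies in, both on log scales, over the 8 libraries; symbols give the strand and place, and the line marks equal levels. MIR1248 lies near the line, MIR5047 lies above it at 2945 against 297 FPKM, and MIR7-1 lies below it at 21.0 against 410 FPKM.

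Between groups, 8 microRNA-named rows were called, and 5 of them on a total of 2 or 2.27 fragments in all libraries. The test was limma on log2(normalized FPKM + 0.1) with Benjamini-Hochberg adjustment over 11465 rows and a threshold of 0.05. Where a group is listed at 0, the fitted difference rests on the smallest values of the normalized table, 0.0718 to 0.135, which stand in place of 0, and on the pseudocount, and is no bound on a fold. An exact permutation test on 2 libraries against 2 cannot go below a p of 0.333. The rows were kept by a mean over all libraries, so a row that passed it only through the groups in which it was seen had to differ. That holds for MIR130B, MIR4312, MIR641, MIR3944, MIR3651 and MIR3648. Their calls are therefore no evidence of a difference, and their fragments and fitted values are given as a description with no p-value.

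In SE DOX against SE vehicle, 3 of the 108 rows were called, where 6 of all 11465 rows (0.0523%) were. Of the 3, 1 was higher, where 0.0349% of all rows were, and 2 were lower, where 0.0174% were. MIR130B, whose microRNA is given above with its seed AGUGCAA, held 1 fragment in each SE DOX library and 0 in each SE vehicle library. In FPKM that was 142 and 188 in SE DOX libraries and 0 in both SE vehicle libraries. The fitted log2 difference was 9.32, set by the small values that stand in place of 0.

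The counts behind that call were 2 fragments in SE DOX, with an exact Poisson 95% interval from 0.242 to 7.22, and 0 in SE vehicle, with one from 0 to 3.69. The intervals overlap. MIR4312 held 0 and 0 fragments in SE DOX libraries, against 1 and 1 in SE vehicle libraries, which read as 806 and 793 FPKM. The fitted log2 difference was -11.92, on 2 fragments in all.

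MIR641, in an intron of the kinase gene AKT2, likewise held 0 and 0 fragments in SE DOX libraries and 1 and 1 in SE vehicle libraries, at 25.6 and 25.2 FPKM. The fitted log2 difference was -6.95. ANP32A and AKT2, the hosts of these 2 rows, ran from 157 to 197 FPKM and from 29.6 to 31.6 FPKM over all libraries. The host levels were thus above 0 in every library in which the rows were at 0.

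In WT DOX against WT vehicle, 4 of the 108 rows were called, where 8 of all rows (0.0698%) were. Of the 4, 1 was higher, where 0.0262% of all rows were, and 3 were lower, where 0.0436% were. MIR3944, in an intron of ECHS1, an enzyme of fatty acid oxidation, held 0 and 0 fragments in WT DOX libraries and 1 and 1 in WT vehicle libraries. The fitted log2 difference was -6.42. MIR3651 had 0 and 0.01 FPKM in WT DOX libraries and 62.8 and 77.0 FPKM in WT vehicle libraries, or 1.18 and 1.09 fragments.

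The fitted log2 difference of MIR3651 was -8.63. The row lies in an intron of IARS, an aminoacyl-tRNA synthetase gene, and shares its place with the small nucleolar RNA SNORA84. The row of SNORA84 held 20.9 and 4.61 FPKM in SE DOX libraries, 17.3 and 0 in SE vehicle libraries, 19.0 and 14.6 in WT DOX libraries, and 23.1 and 20.5 in WT vehicle libraries. SNORA84 was above 0 in 5 libraries in which MIR3651 was off, and how reads were divided between both rows was not tested.

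MIR1260B, within an exon of the Notch coactivator gene MAML2 on the opposite strand, had 0.01 and 0.0191 FPKM in WT DOX libraries and 78.4 and 131 FPKM in WT vehicle libraries. It fell by 9.07 on the log2 scale (standard error 1.25, adjusted p = 0.0455 by limma), on 1.32 and 1.66 fragments in WT vehicle libraries. It was not called with the unnormalized table (adjusted p = 1 by limma). MAML2 had 6.50 and 5.32 FPKM in WT DOX libraries and 6.39 and 4.90 FPKM in WT vehicle libraries. MIR1307, partly in an exon of USMG5, an ATP synthase subunit gene, had 12.7 and 4.24 FPKM in WT DOX libraries and was listed at 0 in both WT vehicle libraries.

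MIR1307 rose by 5.35 on the log2 scale (standard error 0.544, adjusted p = 0.00433 by limma). Without SE DOX A the adjusted p was 0.0554 and without SE DOX B 0.0545, and the call was lost. MIR1307 was also on in all 4 SE libraries, at 2.47 and 5.22 FPKM in SE DOX and 4.62 and 4.58 FPKM in SE vehicle. USMG5 had 352 and 307 FPKM in WT DOX libraries and 359 and 340 FPKM in WT vehicle libraries. WT vehicle was thus the group without a fragment on MIR1307, while USMG5 stood between 271 and 359 FPKM in every library.

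In SE against WT in vehicle, 7 of the 108 rows were called, where 21 of all rows (0.183%) were. Of the 7, 4 were higher, where 0.122% of all rows were, and 3 were lower, where 0.0611% were. MIR1307 was higher in SE vehicle, with a log2 difference of 4.42 (adjusted p = 0.00864 by limma), and MIR1260B was lower, with one of -9.17 (adjusted p = 0.0195 by limma). The fitted log2 differences of rows seen in 1 group were 11.82 for MIR4312, 6.85 for MIR641, -8.71 for MIR3651 and -6.46 for MIR3944. These comparisons use the same vehicle libraries as the DOX comparisons above and are not separate evidence.

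MIR3648, the last of the 7, held 3 and 1 fragments in SE DOX libraries and 2 and 2 in SE vehicle libraries, against 0 and 0 in WT DOX libraries and 0 and 0 in WT vehicle libraries. It passed the minimum only through the SE libraries. In vehicle its fitted log2 difference was 3.43, and the call was lost without SE vehicle A and without SE vehicle B. In DOX it was not called. The exact Poisson 95% interval of 4 fragments in SE vehicle, from 1.09 to 10.2, overlaps that of 0 in WT vehicle, from 0 to 3.69. RefSeq lists this microRNA gene in more than 1 copy, so reads of near-identical copies can be divided or lost, and its level is uncertain.

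In SE against WT in DOX, 1 of the 108 rows was called, MIR130B, where 12 of all rows (0.105%) were. It was higher, as 0.0698% of all rows were, and none was lower, where 0.0349% were. Its fitted log2 difference was 9.28, with 1 fragment in each SE DOX library and 0 in each WT DOX library. The counts give the same pair of intervals as in the comparison with SE vehicle.

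**Figure D5:**
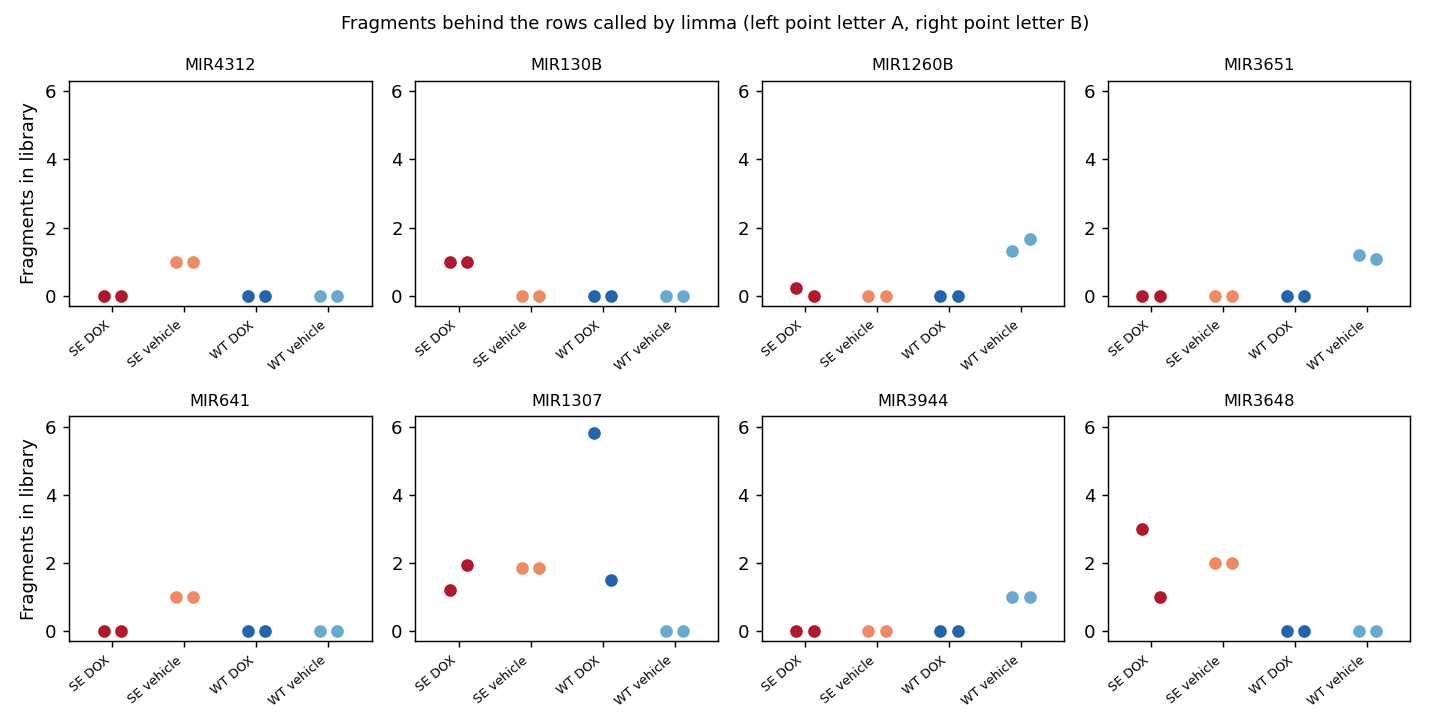
Fragments in each library, in SE DOX, SE vehicle, WT DOX and WT vehicle, for the 8 rows that limma called in any comparison; each point is 1 library, letter A left and B right. No library holds more than 5.8 fragments of any of these rows, and 4 of the panels (MIR4312, MIR130B, MIR641 and MIR3944) rest on 2 libraries with 1 fragment each.

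The difference of the DOX effects, SE minus WT, was called for 6 of the 108 rows, where 9 of all rows (0.0785%) were. Of the 6, 3 were higher, where 0.0436% of all rows were, and 3 were lower, where 0.0349% were. The 6 were MIR4312, MIR130B, MIR3651, MIR641, MIR1307 and MIR3944, each already called in 1 of the DOX comparisons. Of the 108 rows, 21 were on in exactly 2 libraries, and in 5 of these both libraries belonged to 1 group. Those 5 rows, MIR4312, MIR130B, MIR3651, MIR641 and MIR3944, were all called in at least 1 comparison, and a difference between their groups was fixed by how rows were kept. The median log2 difference of the 108 rows was -0.02 in SE DOX against SE vehicle and -0.03 in WT DOX against WT vehicle, against -0.24 and -0.03 over all rows tested. Of the library values of the 108 rows, 526 were off and 338 were on. For many of these rows the difference thus compared the small values in place of 0 with each other. The medians are not alike in kind and do not show that these rows escaped the shift.

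Genes of the microRNA pathway did not pass the test. Of 33 such genes with a row, 30 were tested, and 0 were called by limma in any of the 5 comparisons. At an unadjusted p under 0.05, 0 of them passed in the DOX comparisons, their difference and SE against WT in vehicle, and 20 passed in SE against WT in DOX, where 6929 of all 11465 rows did. In that comparison their log2 differences ran from -0.69 to -0.23 with a median of -0.52, beside a median of -0.53 over all rows tested, and the lowest adjusted p was 0.0765. Their shift was thus close to that of all rows.

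The core genes were present in every library. In unnormalized FPKM, DROSHA ran from 23.0 to 24.8 in SE libraries and from 25.0 to 26.9 in WT libraries. DGCR8 ran from 22.4 to 24.3 FPKM in SE libraries and from 18.2 to 21.0 FPKM in WT libraries. On the normalized scale, SE against WT in vehicle had log2 differences of -0.38 for DROSHA and -0.07 for DGCR8, and neither was called. XPO5 ran from 39.2 to 44.3 FPKM and DICER1 from 19.4 to 22.1 FPKM over the 8 libraries, and their constructs overlapped. Of the Argonaute genes, AGO1 averaged 16.0 FPKM, AGO2 14.3, AGO3 8.95 and AGO4 4.42. LIN28A and LIN28B, which block the processing of let-7 hairpins, did not exceed 0.01 FPKM in any library.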

How the data were processed

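RNA was measured in 8 NALM6 libraries in 4 groups of 2, taken from the treatment, genotype and replicate labels. The authors deposited 2 tables of FPKM values with the same rows, 1 unnormalized and 1 normalized. The submitters' processing notes name HISAT, Cufflinks 2.0.0 and the hg19 build. The method of normalization and the fragment length settings are not given in the sources used here. Per the labels' protocols, ERCC spike-ins, synthetic RNAs, were added to equal numbers of cells. Their summed level ran from 7050 to 7166 in the deposited normalized FPKM table and from 5675 to 10042 in the unnormalized one. Spike-ins were left out.

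Levels and classes used the unnormalized table. Fragments were recovered by dividing each FPKM value by the worth of 1 fragment, with row lengths from GENCODE v29 (GRCh38), used for lengths and overlaps only, with 0.02 fragments of tolerance. Each library's size was set by taking its most frequent value of FPKM times the length open to a fragment as 1 fragment. The shortest fragment of 72 bases was chosen as the one that made most values whole. Differences were tested with limma 3.58.1 in R 4.3.3 (trend), on log2(normalized FPKM + 0.1), over the 11465 rows with a mean of at least 1, and differences are on that scale. Both steps were tested on simulated data. The limma simulation drew normal noise on the log2 scale and not counts of a few fragments, so it does not cover the rows called here. The fragment simulation used the length distribution that the conversion assumes. Poisson intervals are exact and cover 95%. Python 3.11.15, numpy 2.4.6, pandas 2.3.3 and scipy 1.17.1 were used. The kit selects poly(A) RNA and its fragments are longer than a mature microRNA.

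Rows named are all those called, both steady rows, the 10 of highest mean, the 3 on each side of the minimum, and the 5 closest to and 5 farthest above their host. Rows named beyond these, and their partner genes, were chosen after their values were seen. The rows and lists were chosen with earlier results of these data known. Tests were repeated on the unnormalized table, after scaling libraries to equal medians, with a pseudocount of 1, with no filter, with the letter as a block, on the groups compared alone and without each library, and classes with other limits.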

Additional observations from a re-analysis of the deposited data

Results flagged for a closer look

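For 6 rows limma called the difference between the DOX effects of the 2 constructs, and all of them but MIR1307 passed the minimum only through the group in which they were seen, so a difference was fixed by how rows were kept and these calls are no evidence of one. The fitted values rest on the small values in place of 0 and on the pseudocount. The log2 difference of the effects, SE minus WT, was -11.89 for MIR4312, 9.35 for MIR130B, 8.67 for MIR3651, -6.92 for MIR641, -5.90 for MIR1307 and 6.40 for MIR3944. For MIR4312, MIR130B, MIR641 and MIR3944 the whole difference is 1 fragment in each library of 1 group and 0 in the other 6 libraries. MIR3651 held 2.27 fragments, in WT vehicle, and MIR1307 held 14.2 fragments in all, in every group but WT vehicle.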

How the results depend on the processing

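The number of rows called in SE DOX against SE vehicle was 3, in WT DOX against WT vehicle 4, in the difference of these effects 6, in SE against WT in vehicle 7 and in SE against WT in DOX 1. The shares over all rows that go with these counts are given above. For the other settings no share over all rows is given, so their counts are no result about these rows. With the unnormalized table, WT DOX against WT vehicle gave 2 and the difference of effects 3. With equal library medians, and likewise with no filter on low values, WT DOX against WT vehicle gave 2, and with no filter SE against WT in DOX gave 2. Fitted on only the groups compared, SE DOX against SE vehicle gave 61, SE against WT in vehicle 11 and SE against WT in DOX 64; the cause was not tested. Leaving out 1 library at a time gave 3 to 16 in SE DOX against SE vehicle, 4 to 13 in WT DOX against WT vehicle, 9 to 19 in the difference, 8 to 13 in SE against WT in vehicle and 1 to 21 in SE against WT in DOX. The highest counts came without SE DOX B, except without WT DOX B for WT DOX and without WT vehicle B for SE against WT in vehicle; the lone library left is then assumed to vary like the other groups. With the letter as a replicate block, SE against WT in DOX gave 2, the difference 8 and the other comparisons their main number. That block is 1 term for the letter in both constructs. It cannot take up a difference between letters that depends on the construct, so these counts do not settle whether a pairing by letter matters. The main fit has no term for the letter. Deviations of same-letter libraries correlated at 0.116 between SE DOX and SE vehicle, 0.0863 between WT DOX and WT vehicle, 0.00379 between SE DOX and WT DOX and 0.173 between SE vehicle and WT vehicle, and the labels do not say that a letter marks a shared batch. The level of DNTT lay closer within a letter than between letters in both constructs: it had 242 and 249 FPKM in SE A and 281 and 279 FPKM in SE B, and 129.8 and 129.8 FPKM in WT A against 231 and 239 FPKM in WT B, DOX before vehicle. HMGN1 did so in SE, with 1421 and 1427 FPKM in A and 1061 and 1066 FPKM in B. For RAG1 the direction depended on the construct. It had 147 and 147 FPKM in SE A against 133 and 136 FPKM in SE B. In WT A it had 73.1 and 71.2 FPKM against 109 and 104 FPKM in WT B, DOX before vehicle.

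No single row changed direction under any of these settings. For MIR130B, MIR4312, MIR641, MIR3944, MIR3651 and MIR3648, which make up most of the calls, a difference was fixed by how rows were kept. Neither their steady direction nor the calls kept below are therefore evidence of a difference. Of 288 combinations of a called row and a setting, 258 kept the call and 30 lost it, and 12 of the 21 calls were kept in all of theirs. Steady rows numbered 1 with a limit of 1.5 times, 6 with a limit of 3 times and 2 to 3 without 1 library, and on/off rows numbered 92 with off taken as exactly 0 and 99 to 100 without 1 library. The effect of depth on these calls was not tested.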
